A study of Mus musculus with 6 samples.

Results

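The expression of 8 synaptic effector genes was followed in mouse hippocampus after a seizure. They were Arc, the scaffold genes Homer1, Homer2 and Homer3, the neuronal pentraxin genes Nptx1, Nptx2 and Nptxr, and Nrn1, which encodes neuritin. All were taken by symbol from a table of 23361 genes, and all 8 lay above the minimum level for testing, a mean of 1 FPKM. FPKM relates the sequenced fragments of a gene to its length and to the size of the library, and depth cannot be read from it. Arc, Homer1, Nptx2 and Nrn1 are known to be induced by neuronal activity, and Homer2, Homer3, Nptx1 and Nptxr served as their constitutive relatives.

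The mutant mice were Tet1-deficient (Tet1Δe4-/-, named for a homozygous deletion in Tet1 written Δe4, where Tet1 encodes a dioxygenase acting on methylated cytosine in DNA), and they were set against Tet1+/+ mice, called wild-type here. Every mouse of both genotypes had received electroconvulsive shock through the ears (18 mA, 100 Hz, pulses of 0.2 ms, for 1.15 seconds), and the whole hippocampus was taken 1.5 to 2 hours later. There were 3 libraries per genotype, and neither the age nor a tissue restriction of the deletion is given in the labels. No unshocked libraries were analysed here, so "induced" names what is known of a gene and not a change measured in these mice.

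Arc is an immediate early gene whose protein is made at active synapses, binds the endocytic machinery and removes AMPA-type glutamate receptors from the membrane. Homer proteins join group I metabotropic glutamate receptors to Shank scaffolds and intracellular calcium channels, and a short Homer1 form that appears after activity competes with the long forms. Neuronal pentraxins are secreted or membrane-tethered proteins that gather AMPA receptors at synapses, and neuritin is a lipid-anchored protein that promotes the growth of neurites and synapses. In hippocampus, Arc in particular is widely used to mark neurons that have recently fired.

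Upstream sequences are shown for a pair of family members that differ most in level, the abundant and inducible Homer1 and the scarce Homer2. RefSeq sequences on GRCm38.p6, the assembly that mm10 corresponds to, were matched for 3 of the 8 members (Homer1, Homer2 and Homer3). Each run holds the 250 bases before the first listed start site, on the gene's own strand, at chr13:93303507-93303756 on the plus strand for Homer1 and chr7:81706926-81707175 on the minus strand for Homer2. Both windows lie inside the gene bounds of GENCODE M21, where other transcripts start farther upstream. Capitals mark the core of the cyclic AMP response element, TGACG, searched on both strands.
Homer1: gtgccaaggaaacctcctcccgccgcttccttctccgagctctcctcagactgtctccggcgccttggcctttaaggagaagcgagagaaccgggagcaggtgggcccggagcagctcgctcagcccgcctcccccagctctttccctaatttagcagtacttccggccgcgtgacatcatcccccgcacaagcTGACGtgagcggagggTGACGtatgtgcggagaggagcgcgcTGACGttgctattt
Homer2: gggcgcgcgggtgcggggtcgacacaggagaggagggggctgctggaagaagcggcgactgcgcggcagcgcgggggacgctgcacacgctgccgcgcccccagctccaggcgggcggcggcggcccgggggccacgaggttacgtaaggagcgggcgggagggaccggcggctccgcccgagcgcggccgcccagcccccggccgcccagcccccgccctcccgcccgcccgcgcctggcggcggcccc

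The Homer1 window held 3 copies of the core TGACG, whose first bases lay 56, 40 and 14 bases before the start site, and the Homer2 and Homer3 windows at their first start sites held 0. Annotated exons cover 172 of the 250 bases of that Homer3 window, 19 of the Homer2 window and 0 of the Homer1 window. The Homer3 window is thus mostly exon sequence, which limits its comparison with the other windows. Among all 32851 listed start sites, 17.8% had at least 1 copy in their 250 upstream bases and 0.688% had 3 or more. The complete element TGACGTCA was in 0 of the 3 windows and in 1.55% of all. The other motifs searched were AP-1 (TGANTCA, 6.75% of all), the Egr site (GCGTGGGCG on both strands, 0.536%), TATAAA on both strands (12.4%) and the CArG box bound by serum response factor (1.47%), and none was present in these 3 windows. TGACG is part of TGACGTCA, so those matches are not separate. Homer1 and Homer2 each have a second listed start site, whose windows differed from the first. That of Homer1 held 0 copies of TGACG and 7 CpG pairs, and that of Homer2 held 1 TATAAA and 3 CpG pairs. At the first start sites, the Homer2 window was the richest in CpG, with 40 CpG pairs and 83.2% G and C, against 21 pairs and 62.4% for Homer1 and 11 pairs and 68.0% for Homer3, where the median window had 6 pairs. A match describes these letters and says nothing of binding.

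The libraries fell into a pattern that genotype does not explain. On the first principal component of the tested genes, which held 53.3% of the variance, Tet1-deficient replicate 1 and wild-type replicate 1 lay apart from the other 4 libraries. The title of wild-type replicate 1 carries a letter f where those of the other libraries carry m, and the labels explain neither letter. Both of these libraries were below all of the other 4 for 35.0% of tested genes and above all of them for 28.5%. The Tet1 transcript measured 0.740, 0.685 and 0.638 FPKM in Tet1-deficient libraries, against 0.977, 0.718 and 0.897 FPKM in wild-type libraries, and a level summed over all exons does not check a deletion of part of the gene. All 46 listed markers of 11 hippocampal or neighbouring cell types were in the table, and 0 were at 0 throughout. Summed markers of neurons ran from 2478 to 2573 FPKM in Tet1-deficient and from 2369 to 2482 FPKM in wild-type libraries, and those of dentate granule cells from 122 to 138 and from 114 to 125 FPKM. Choroid plexus markers varied most, from 9.07 to 194 FPKM in Tet1-deficient and from 7.11 to 302 FPKM in wild-type libraries. Most of this range was Ttr, at 187 FPKM in Tet1-deficient replicate 2 and 294 FPKM in wild-type replicate 3. Neither library was among those that lay apart, and the marker Kl ran only from 2.73 to 4.97 FPKM. In whole tissue, fewer cells of a type and less RNA per cell cannot be told apart.

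None of the 8 members passed the test between the genotypes, and for 7 of them the groups overlapped. Nrn1 was the exception, with all 3 Tet1-deficient libraries above all 3 wild-type libraries and a Tet1-deficient mean at 115% of the wild-type mean, and it did not pass either. The test was limma on log2(FPKM + 1) across 12533 genes with Benjamini-Hochberg adjustment, where 4 genes (0.0319%) had an adjusted p under 0.05 and none of these was a member. At an unadjusted p under 0.05 there were 0 of 8 members, against 1.36% of tested genes. Of the 8 members 1 had groups that did not overlap, where 4.13% of tested genes did. In this fit the adjusted limma p of each member was 1.00.

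**Figure D1:**
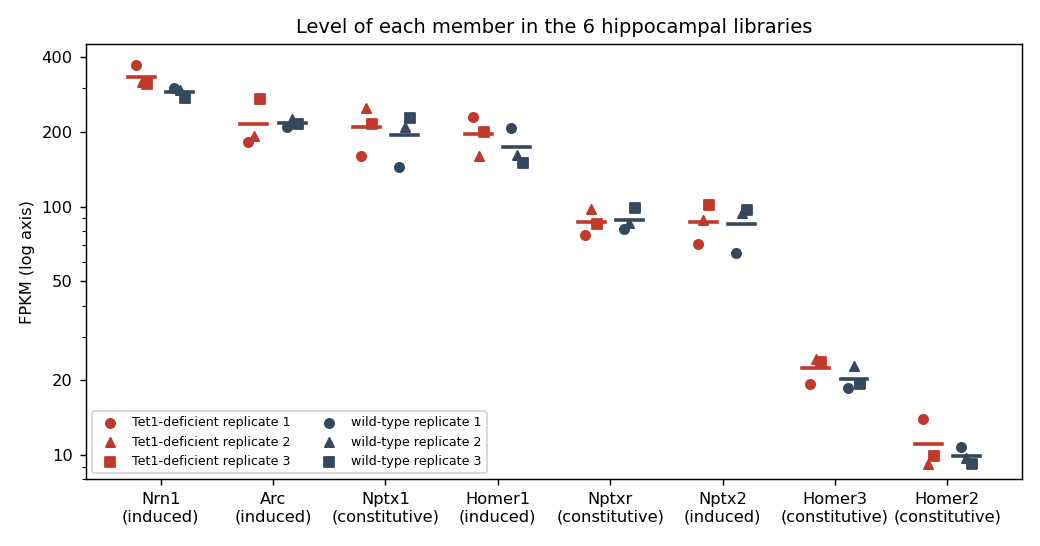
FPKM on a log axis for the 8 members, ordered by mean level, in 3 Tet1-deficient (red, left) and 3 wild-type libraries (dark, right). Marker shapes stand for replicates and horizontal bars for group means; Nrn1 is the member whose groups do not overlap.

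By level the members spanned a wide range. Averaged over the 6 libraries, Nrn1 stood first at 310.5 FPKM, followed by Arc at 215 FPKM, Nptx1 at 201 FPKM, Homer1 at 184 FPKM, Nptxr at 87.6 FPKM, Nptx2 at 86.0 FPKM, Homer3 at 21.4 FPKM and Homer2 at 10.5 FPKM. The ranges of Arc, Nptx1 and Homer1 overlapped, as did those of Nptxr and Nptx2, so these neighbours did not differ beyond their spread. Nrn1 exceeded Arc within every library, by a ratio from 1.15 to 2.04, and Homer3 exceeded Homer2 by 1.38 to 2.64. The levels of Nrn1, Arc, Nptx1 and Homer1 were above those of more than 97% of tested genes, and Homer2 lay near the middle, above 48.9%. High level was therefore not a property of the induced members alone, since Nptx1 stood among them.

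Arc (chr15:74669083-74672570, minus strand, mm10) measured 181, 191 and 271 FPKM in Tet1-deficient libraries, against 209, 224 and 215 FPKM in wild-type libraries. The wild-type values lay close together inside the Tet1-deficient range, and Tet1-deficient replicate 3 was the highest of all. The means were 215 ± 49.2 FPKM in Tet1-deficient and 216 ± 7.73 FPKM in wild-type hippocampus (SD, n = 3 each). The log2 difference was −0.033 (SE 0.158), and its 95% interval covered 0.754-fold to 1.27-fold. Its sign turned with library weights (0.22), without Tet1-deficient replicate 1 (0.076) or replicate 2 (0.038), and without the 2 libraries that stood apart (0.051). Without Tet1-deficient replicate 3 it was −0.21.

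Nrn1 (chr13:36725361-36735131, minus strand) measured 371, 316 and 311 FPKM in Tet1-deficient libraries, against 299.6, 294 and 272 FPKM in wild-type libraries. The gap between the groups was narrow, between 311 FPKM in the lowest Tet1-deficient and 299.6 FPKM in the highest wild-type library. The means were 332 ± 33.2 FPKM in Tet1-deficient and 289 ± 14.5 FPKM in wild-type hippocampus (SD, n = 3 each). The log2 difference was 0.20 (SE 0.10), with an interval from 0.973-fold to 1.35-fold and an unadjusted limma p of 0.0889. It was 0.12 without Tet1-deficient replicate 1, the highest library, and 0.15 without the 2 libraries that stood apart. With the library split as a term in the model the unadjusted limma p was 0.0119 and the adjusted p 0.611. In that model 848 of 12533 tested genes had an unadjusted limma p under 0.05. Nrn1 overlaps Fars2 on the opposite strand, at 7.78 FPKM, and the strand setting of the counts is not given in the sources used here.

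Homer1 (chr13:93299635-93405129, plus strand), the abundant scaffold of its family, measured 229, 159 and 199.8 FPKM in Tet1-deficient libraries, against 207, 161 and 150.2 FPKM in wild-type libraries. The 2 libraries that stood apart were the highest, 1 in each genotype. The means were 196 ± 35.2 FPKM in Tet1-deficient and 173 ± 30.3 FPKM in wild-type hippocampus (SD, n = 3 each). The log2 difference was 0.18 (SE 0.174), with an interval from 0.851-fold to 1.51-fold. Leaving out Tet1-deficient replicate 1 gave 0.061 and leaving out replicate 2 of that genotype gave 0.32, and the value was 0.30 with library weights (adjusted limma p 0.315) and 0.20 without the 2 libraries that stood apart. The annotation (GENCODE M21) lists 12 Homer1 transcripts, 11 of them protein-coding and from 772 to 5713 bases long, and a value per gene does not separate the short inducible form from the long forms.

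Homer2 (chr7:81600481-81707527, minus strand) measured 14.0, 9.24 and 9.97 FPKM in Tet1-deficient libraries, against 10.8, 9.78 and 9.19 FPKM in wild-type libraries, so 1 Tet1-deficient library was high and the other two lay in the wild-type range. Its log2 difference was 0.12 (SE 0.157), with an interval from 0.842-fold to 1.41-fold, and it was −0.042 without Tet1-deficient replicate 1. Homer3 (chr8:70282827-70294361, plus strand) measured 19.3, 24.4 and 23.8 FPKM in Tet1-deficient libraries, against 18.6, 22.9 and 19.4 FPKM in wild-type libraries. Here the 2 libraries that stood apart were the lowest. The log2 difference of Homer3 was 0.14 (SE 0.128), with an interval from 0.891-fold to 1.36-fold. Homer3 overlaps Ddx49 on the opposite strand, at 17.8 FPKM, close to the level of Homer3 itself, with a longest shared stretch of 717 bases, and without strand the reads in the overlap cannot be told apart.

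Nptx2 (chr5:144545902-144557478, plus strand), the inducible secreted pentraxin also called Narp, measured 70.6, 88.0 and 101 FPKM in Tet1-deficient libraries, against 64.8, 94.6 and 96.9 FPKM in wild-type libraries. Each genotype had 1 low library, again those that stood apart, and 2 high ones. The means were 86.6 ± 15.3 FPKM in Tet1-deficient and 85.4 ± 17.9 FPKM in wild-type hippocampus (SD, n = 3 each). The log2 difference was 0.026 (SE 0.196), with an interval from 0.737-fold to 1.41-fold. It was −0.16 without wild-type replicate 1 and −0.092 without Tet1-deficient replicate 3. Without both libraries that stood apart it was −0.021, with a narrower interval from −0.21 to 0.17 on the log2 scale.

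Nptx1 (chr11:119538719-119547753, minus strand), the constitutive secreted pentraxin, was like Nptx2 lowest in the 2 libraries that stood apart. Its highest Tet1-deficient library was replicate 2, where that of Nptx2 was replicate 3. Nptx1 measured 159.7, 249.9 and 214 FPKM in Tet1-deficient libraries, against 145, 208 and 227 FPKM in wild-type libraries, with the lowest value of each genotype in the library that stood apart. Its log2 difference was 0.11 (SE 0.221), with the widest interval of the 8 members, from 0.750-fold to 1.55-fold, and it was −0.085 without wild-type replicate 1 and −0.035 without Tet1-deficient replicate 2. Nptxr (chr15:79786351-79804766, minus strand), the membrane-tethered pentraxin receptor, measured 77.1, 97.5 and 85.4 FPKM in Tet1-deficient libraries, against 81.3, 85.6 and 98.5 FPKM in wild-type libraries. Its log2 difference was −0.031 (SE 0.123), with an interval from −0.32 to 0.26 on the log2 scale, and it was 0.049 without Tet1-deficient replicate 1 and 0.048 without wild-type replicate 3. Nptxr shares 890 exonic bases, 17.2% of its own, with Npcd, a transcript on the same strand that joins Cbx6 to Nptxr. Npcd was listed at 181, 304 and 285 FPKM in Tet1-deficient libraries, against 197, 264 and 277 FPKM in wild-type libraries, so the split of reads between these genes makes the Nptxr level uncertain. Without the 2 libraries that stood apart, the log2 differences were 0.016 for Homer2, 0.18 for Homer3, 0.092 for Nptx1 and −0.0090 for Nptxr.

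**Figure D2:**
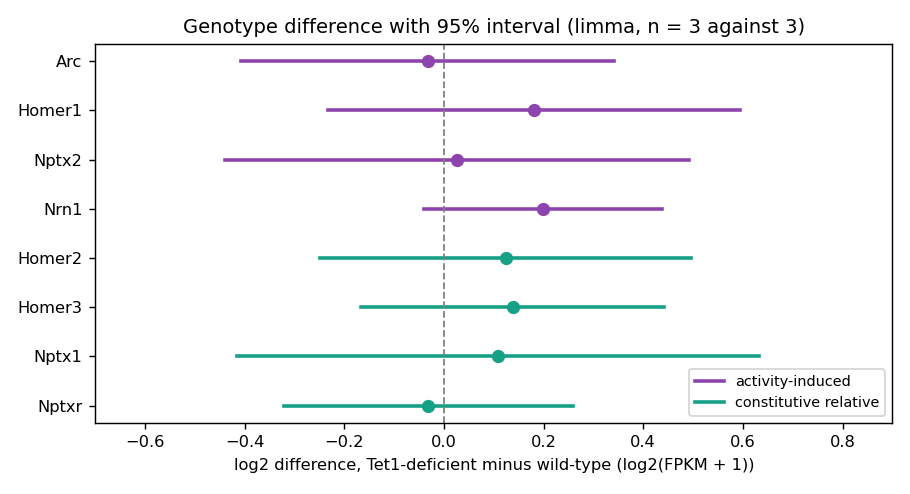
Log2 difference of each member, Tet1-deficient minus wild-type, with its 95% limma interval (n = 3 against 3). In this fit, without library weights or the library split as a term, all 8 intervals include 0. The Nrn1 interval starts at −0.04.

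Between the genotypes the induced members and their constitutive relatives gave equal counts. Of the 4 induced genes, 3 had a difference above 0 and 0 passed, with a median log2 difference of 0.10. The same was true of 3 of the 4 constitutive genes, with 0 passed and a median of 0.12. Of all 12533 tested genes 6632 had a difference above 0, and their median was 0.0055. Within genotypes, the SD of log2(FPKM + 1) was 0.22 for Arc, 0.25 for Homer1, 0.29 for Nptx2 and 0.11 for Nrn1, against 0.22 for Homer2, 0.17 for Homer3, 0.33 for Nptx1 and 0.16 for Nptxr. Of the 500 genes nearest in level to each, 91.6% had a smaller SD than Nptx1, 81.0% a smaller SD than Nptx2 or Homer1, and 33.4% a smaller SD than Nrn1. The most variable member was thus a constitutive gene and the least variable an induced one. Each genotype held 1 of the 2 libraries that stood apart, so these SDs include that split. Those libraries differed from the other 4 by −0.56 for Nptx1 and 0.16 for Nrn1 on the log2(FPKM + 1) scale. The difference between induced and constitutive genes was not tested.

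Homer1 and Nptx1 were the most abundant genes of their families in all 6 libraries. Homer1 made up 87.3%, 82.6% and 85.5% of the summed Homer FPKM in Tet1-deficient libraries, against 87.5%, 83.1% and 84.0% in wild-type libraries. Nptx2 made up 23.0%, 20.2% and 25.2% of the summed pentraxin FPKM in Tet1-deficient libraries, against 22.3%, 24.4% and 23.0% in wild-type libraries. The ratio of Nptx2 to its constitutive relative Nptx1 was 0.422 ± 0.0620 in Tet1-deficient and 0.443 ± 0.0140 in wild-type hippocampus (SD, n = 3 each), and that of Homer1 to Homer2 was 17.9 ± 1.90 and 17.3 ± 1.59 in the same order. The groups overlapped in each of these shares and ratios. The pentraxin shares include Nptxr, whose level is uncertain because of the bases it shares with Npcd. The Homer shares and the ratio to Homer3 likewise rest on Homer3, whose level is uncertain because of its overlap with Ddx49. Homer1 over Homer3 was higher in the 2 libraries that stood apart, 11.9 and 11.1, than in the other 4, where it ran from 6.52 to 8.40.

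**Figure D3:**
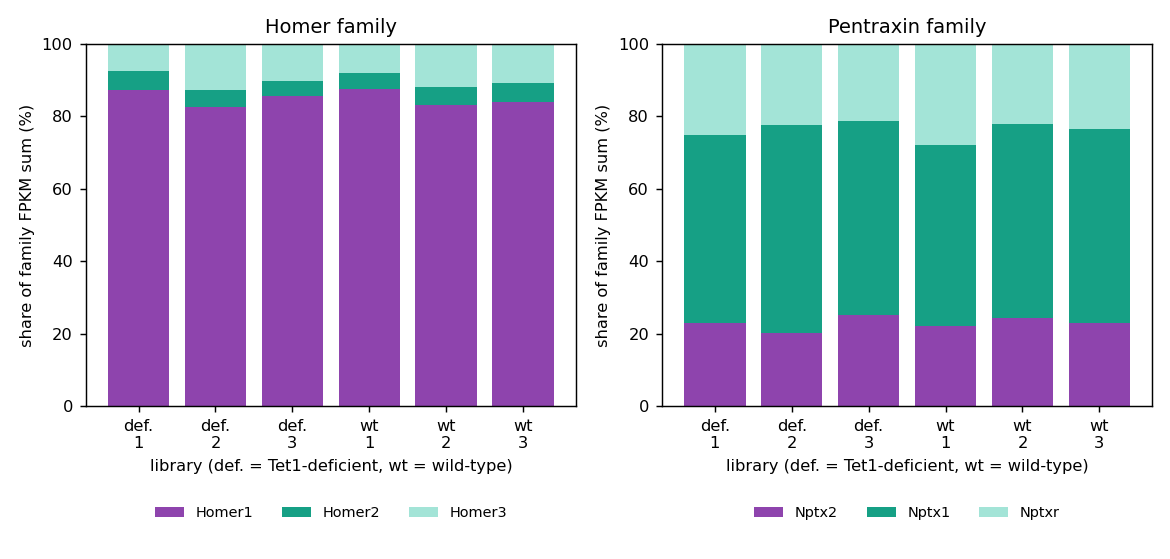
Share of each gene in the summed FPKM of the Homer family (left) and of the neuronal pentraxins (right), as a percentage per library, with Tet1-deficient libraries left of wild-type ones. Homer1 takes 82.6% to 87.5% of its family and Nptx2 20.2% to 25.2%, where the pentraxin sum includes the uncertain Nptxr level. The Homer sum includes Homer3, whose level is uncertain because of its overlap with Ddx49.

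Across libraries some members rose where others fell, as tested genes at large did. Relative to the other 4 libraries, those that stood apart were lower for Nptx1 (a mean difference of −0.56 on the log2(FPKM + 1) scale), Nptx2 (−0.48), Homer3 (−0.24) and Nptxr (−0.21), and higher for Homer1 (0.39) and Homer2 (0.34), in each case with no overlap. Arc (−0.20) and Nrn1 (0.16) overlapped. Thus 6 of 8 members were separated in this way, beside the 35.0% and 28.5% of tested genes given above. Among the 26 other activity-induced genes listed, 15 were higher and 6 lower in both of these libraries than in the other 4. The mean deviation of the 26 genes was 0.11, −0.24 and 0.08 in Tet1-deficient libraries and 0.34, −0.08 and −0.21 in wild-type libraries. Homer1 was above its own mean in the same 3 libraries as this list, and Nptx2 was above its mean in 1 of them. In the same 2 libraries the summed astrocyte markers ran from 411 to 457 FPKM, against 356 to 395 FPKM in the other 4, those of microglia from 55.3 to 59.6 against 49.1 to 53.2 FPKM, and those of oligodendrocytes from 2552 to 2827 against 2835 to 3304 FPKM, with no marker at 0. The part that these markers or the library split play in these values was not tested.

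**Figure D4:**
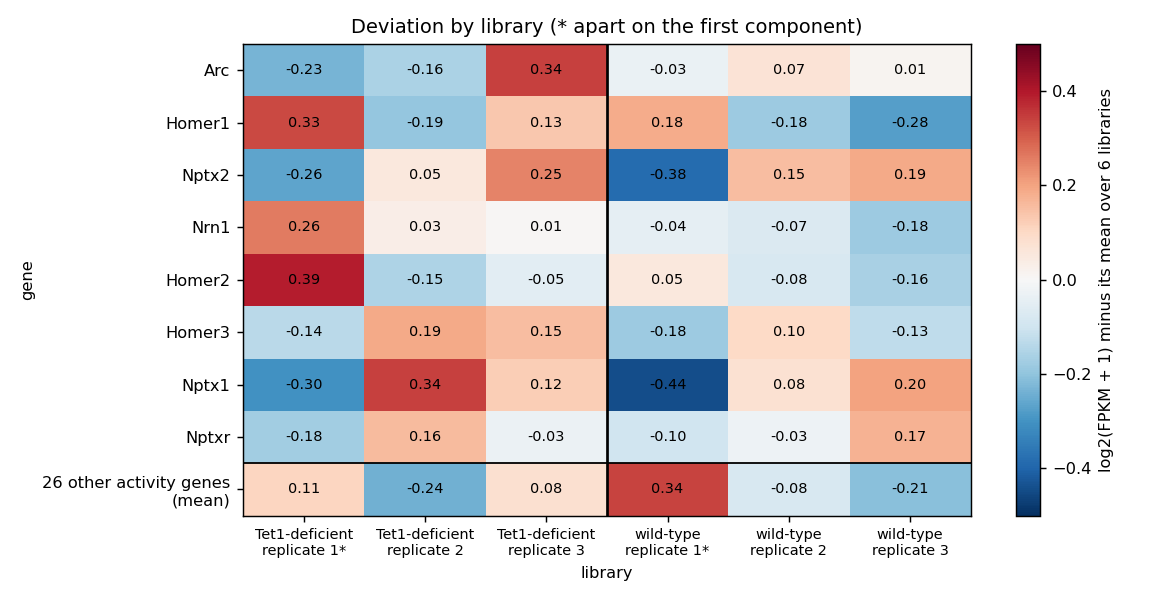
Deviation of each member from its own mean over the 6 libraries, in log2(FPKM + 1), with Tet1-deficient libraries left and wild-type libraries right; the bottom row is the mean of 26 other activity genes. In the libraries marked with an asterisk Homer1 and Homer2 are above their means, and Homer3 and the 3 pentraxin genes below.

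The genes with the nearest profiles were found by the root mean square difference of centred log2(FPKM + 1) over the 6 libraries, among tested genes of similar SD. For Nptx2 they were Esrra, a nuclear receptor gene, Cope, of the vesicle coat, and Apba3, an adaptor gene, at 0.0203, 0.0248 and 0.0282 among 2670 candidates. Nptx1 stood at rank 942 for Nptx2, at 0.136, where the median candidate was at 0.239. For Homer1 they were Arrdc3, Klhl7 and Nt5c3, at 0.0421, 0.0444 and 0.0455 among 2883 candidates, and Homer2 stood at rank 355, at 0.116. For Nrn1 they were Kcnh5, a potassium channel gene, Mrps18c, of the mitochondrial ribosome, and Gas5, at 0.0313, 0.0340 and 0.0355 among 3566 candidates. For Arc they were Traip, Pmf1 and Erf, a transcriptional repressor gene, at 0.0707, 0.0717 and 0.0769 among 3447 candidates. Arc and Homer1 were 0.305 apart, farther than the median candidate of Arc (0.242) and nearer than the median candidate of Homer1 (0.381). With 6 libraries and so many candidates, such nearness only describes these libraries.

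Genes whose products work with the members did not pass the test either. Of 14 genes for Homer partners, 0 passed, with 8 differences above 0 and a median log2 difference of 0.015. For this and the following lists, the share over all tested genes was 6632 of 12533 above 0. Their most abundant members were Dlg4, encoding the scaffold PSD-95, Agap2, Dlgap1 and Shank1, and Dlg4 measured 326 ± 37.8 FPKM in Tet1-deficient and 329.7 ± 54.4 FPKM in wild-type hippocampus (SD, n = 3 each). Shank1, a scaffold that Homer binds directly, measured 77.7 ± 14.1 and 73.8 ± 17.4 FPKM in the same order.

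Of 16 genes for Arc partners 0 passed and 10 had differences above 0, with a median of 0.0085. Camk2a, encoding the alpha subunit of the calcium/calmodulin-dependent kinase II, was the member of this list with the smallest p. It measured 1415, 1354 and 1339 FPKM in Tet1-deficient libraries, against 1208, 1192 and 1142 FPKM in wild-type libraries, with no overlap. Its log2 difference was 0.21 (SE 0.0733), and in limma its unadjusted p was 0.0230 and its adjusted p 1.00. Camk2b, whose product binds Arc at inactive synapses, measured 471 ± 52.9 FPKM in Tet1-deficient and 454 ± 56.9 FPKM in wild-type hippocampus (SD, n = 3 each), and Ap2m1, of the endocytic adaptor AP-2, 285 ± 17.5 and 282 ± 14.4 FPKM in the same order.

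Among 9 genes for pentraxin partners 8 had differences above 0 and 0 passed, with a median of 0.063, where 6632 of 12533 tested genes were above 0. The related genes C1qa, C1qb and C1qc were among the 8, at 0.088, 0.063 and 0.076, and C1qb held the median. The list median was 0.017, 0.015 and 0.031 without Tet1-deficient replicates 1, 2 and 3, and 0.032 without wild-type replicate 3. The AMPA receptor subunit genes Gria1 and Gria2, whose products pentraxins gather, measured 234 ± 17.4 and 269 ± 52.8 FPKM in Tet1-deficient hippocampus, against 232 ± 16.8 and 244 ± 17.3 FPKM in wild-type hippocampus (SD, n = 3 each). Of 10 genes for transcription factors and coactivators that act on activity-induced genes, 3 had differences above 0 and 0 passed, with a median of −0.019. Mef2d measured 58.7 ± 6.46 FPKM in Tet1-deficient and 62.2 ± 9.43 FPKM in wild-type hippocampus, and Crtc1, a CREB coactivator gene, 51.0 ± 3.66 and 49.8 ± 6.55 FPKM in the same order. The 26 other activity-induced genes had 12 differences above 0, 0 passed and a median of −0.02. Egr3 measured 341 ± 60.2 FPKM in Tet1-deficient and 328 ± 43.9 FPKM in wild-type hippocampus, and the kinase gene Plk2 271 ± 23.7 and 263 ± 26.1 FPKM (SD, n = 3 each). The medians of the Homer partners (−0.087 without wild-type replicate 1), the Arc partners (−0.044 without wild-type replicate 1), the transcription factors and coactivators (0.0074 without wild-type replicate 2) and the other activity genes (0.20 without wild-type replicate 1) changed sign with 1 library left out.

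**Figure D5:**
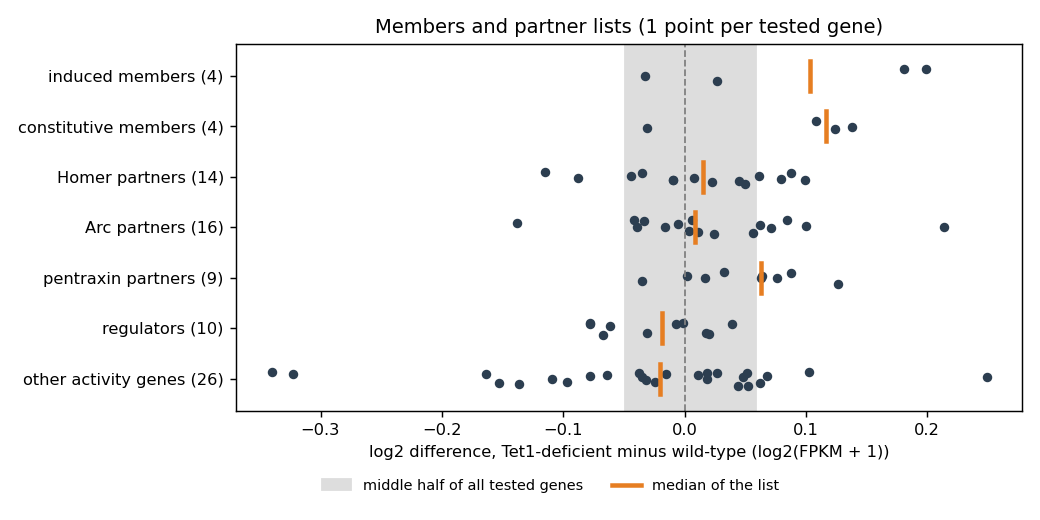
Log2 difference (Tet1-deficient minus wild-type) of every tested gene in the member and partner lists, 1 point per gene, with the list median as an orange bar. The grey band is the range between the quartiles of all 12533 tested genes, from −0.05 to 0.06; list medians run from −0.02 to 0.12.

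Relatives outside the 8 genes were scarce. Of 6 listed relatives 2 were tested, Peg10 and Rtl1, which like Arc derive from a retrotransposon gag gene, and neither passed. Peg10 measured 5.42 ± 1.39 FPKM in Tet1-deficient and 5.99 ± 0.803 FPKM in wild-type hippocampus (SD, n = 3 each). Nrn1l, the closest relative of Nrn1, ran from 0.156 to 0.518 FPKM over the 6 libraries, and the long pentraxin gene Ptx3 from 0.546 to 1.10 FPKM. The short pentraxin genes Crp and Apcs reached at most 0.217 and 0.173 FPKM. Apcs was listed at 0 in the 3 Tet1-deficient libraries and at 0.173, 0.0385 and 0.0284 FPKM in the wild-type ones. Both genes were below the level for testing, and with depth unknown a listed 0 does not show absence.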

How the data were processed

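The authors deposited 1 table of gene-level FPKM values with a column per library, and 0 columns were left unused. TopHat2 2.0.9, Cufflinks 2.1.1 and the build mm10 are named, per the submitters' processing notes. Their annotation, their strand setting and how they placed reads mapping to several loci: not given in the sources used here. Depth is unknown, so no interval that needs counts is given. Values were taken as log2(FPKM + 1), which understates differences of low genes. The 12533 genes averaging 1 FPKM or more were tested with limma 3.58.1 in R 4.3.3 (intensity trend, no covariate, two-sided, Benjamini-Hochberg over all tested genes, threshold 0.05), a script tested on simulated data. Differences are Tet1-deficient minus wild-type. The labels do not say how litters or animals relate, and replicate numbers, given in sample order, pair nothing, so p-values measure the spread between these libraries.

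Members and lists were chosen with earlier results of these data known. Named genes are the members, the 4 most abundant genes of each list and its smallest p, and the 3 nearest profiles (SD within 0.8 to 1.25 times that of the member); not all are printed, and 1 gene is not reported here. Gene positions and transcripts came from GENCODE M21. BLAST 2.17.0 searched member transcripts for other genes (95% identity over at least 100 bases): matches were Fars2 for Nrn1, Gm44570 for Homer2, Ddx49 for Homer3 and Npcd for Nptxr, all overlapping loci. Alternatives were pseudocount 0.1 FPKM, no filter, 2 other scalings, no trend, library weights, threshold 0.1, leaving out each library, and the library split as a term or left out.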

Additional observations from a re-analysis of the deposited data

How the results depend on the processing

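In all alternatives run 0 of the 8 members passed, and the smallest adjusted p of a member was 0.315 (Homer1 with library weights). With library weights 2 of 8 members (Homer1 and Nrn1) had an unadjusted limma p under 0.05, beside 1232 of 12533 tested genes. With the split as a term 1 of 8 (Nrn1) did, beside 848 of 12533. No filter, no trend and the library split as a term leave each member difference as it was. Under the other 11 alternatives 75 of 88 member differences kept their sign and 13 did not. The sign of Arc turned with library weights (0.22) and without the 2 libraries that stood apart (0.051), and ran from −0.21 to 0.076 with 1 library left out. That of Nptx2 turned with quantile normalization (−0.00018) and without those 2 libraries (−0.021), and ran from −0.16 to 0.16 with 1 library left out. With 1 library left out the difference ran from −0.042 to 0.23 for Homer2, −0.085 to 0.29 for Nptx1 and −0.12 to 0.049 for Nptxr. Homer1 (0.061 to 0.32), Nrn1 (0.12 to 0.25) and Homer3 (0.078 to 0.24) stayed above 0. With 1 library left out, list medians ran from −0.087 to 0.048 for Homer partners (negative without Tet1-deficient replicate 2 or wild-type replicate 1), −0.044 to 0.064 for Arc partners (negative without those or Tet1-deficient replicate 3), 0.015 to 0.061 for pentraxin partners, −0.047 to 0.0074 for transcription factors and coactivators (positive without Tet1-deficient replicate 2 or wild-type replicate 2) and −0.17 to 0.20 for the other activity genes (positive without Tet1-deficient replicate 2 or wild-type replicate 1). The medians of the Homer partners and of the other activity genes also changed sign with library weights (−0.055 and 0.14) and without the 2 libraries that stood apart (−0.022 and 0.066). That of the Arc partners did with quantile normalization (−0.012), and those of the transcription factors and of the other activity genes did with median-of-ratios scaling (0.00019 and 0.00028). Over all genes 4 passed; 59 did with library weights, 8 with the split as a term, 13 without the 2 libraries, and from 0 to 6 with 1 library left out. The count was 0 without Tet1-deficient replicate 2 (189 genes at an unadjusted limma p under 0.05) or wild-type replicate 3 (148), 1 without Tet1-deficient replicate 3 or wild-type replicate 2, and 6 without wild-type replicate 1. The cause was not tested. Unknown depth limits what low values show.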

Other observations

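Of the 26 activity-induced genes outside the 8 members, 15 were higher and 6 lower in both replicate 1 libraries than in the other 4, and 5 were neither. Over all tested genes 28.5% were higher and 35.0% lower, and those genes themselves defined the split. Whether the list departs from these shares was not tested. Egr1, an immediate early transcription factor gene, measured 144, 74.0 and 107 FPKM in Tet1-deficient libraries and 169, 87.4 and 81.2 FPKM in wild-type libraries, with the highest value of each genotype in replicate 1, as for Homer1. Vgf, a neuropeptide precursor gene, measured 78.6, 145 and 129 FPKM in Tet1-deficient libraries and 77.3, 139 and 141 FPKM in wild-type libraries, with the lowest value of each genotype in replicate 1, as for Nptx2 and Nptx1. Ier2, an immediate early gene, was of neither kind, at 1.83, 2.64 and 2.16 FPKM in Tet1-deficient libraries and 2.90, 2.30 and 2.38 FPKM in wild-type libraries. These 3 genes were chosen after their values were seen, from those the naming rule took.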
